A study of Mus musculus with 965 samples.

Results

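Neural progenitor-like cells of mouse embryoid bodies (EBs) were taken as the day 6 and day 8 cells with at least 5 raw reads in at least 3 of 8 marker genes, Sox1, Pax6, Pax3, Fabp7, Hes5, Zic1, Sox21 and Pou3f2. A total of 109 of the 600 cells of 10 plates met this rule, out of 965 cells in the whole series. The other 491 cells of the same plates served as the comparison, and 1 of the 365 day 3 cells, from clone 3A38, would also have met the rule. The markers chose the cells, so their levels in these cells are given as a description and with no test, and likewise every difference between these cells and the others.

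In the embryo, neural progenitors line the neural tube as a dividing neuroepithelium, from which neurons and later glia arise. Sox1 is one of the first transcription factors of the committed neural plate, Pax6 and Pax3 mark regions along the dorsal to ventral axis of the tube, and Zic1 is a zinc finger factor of its dorsal part. Fabp7 encodes the brain fatty acid-binding protein of radial glia, Hes5 is a target of Notch signalling that holds progenitors undifferentiated, and Sox21 and Pou3f2 (also called Brn2) are neural transcription factors. In EBs, aggregates that embryonic stem cells (ESCs) form once leukaemia inhibitory factor (LIF) is withdrawn, such cells arise beside cells of mesoderm and endoderm.

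All cells derived from E14 mouse ESCs grown as EBs in serum-containing medium without LIF, and differed in genotype, clone and day. WT was wild type, 3AKO was homozygous for a Dnmt3a knockout (clones 3A2 and 3A38), and 3BKO was homozygous for a Dnmt3b knockout (clones 3B126 and 3B77). Each clone and day was a pool of EBs sorted as single cells into 1 plate, except WT at day 8, which filled plates C343 and C344, and of the 10 day 6 and day 8 plates 1, of day 6, was of clone 3A2. Batch 1 held all 3AKO plates, batch 2 WT and 3B126, and batch 3 the 3B77 plates, so that batch cannot be told apart from genotype except where WT is set against 3B126.

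Plates C343, C344 and C378 of day 8 were treated as doubtful. Reads of Y-linked genes (at least 3 reads over 4 genes) were found in 23 of 74 WT cells at day 3, in 36 of 67 at day 6, in 3 of 21 on C343 and in 0 of 68 on C344. Clone 3B126 had such reads in 0 of 58 cells at day 6 and in 0 of 51 at day 8. The 0 of 68 on C344 (exact binomial 95% interval 0 to 5.28%) goes against its WT label. Whether the plate was mislabelled was not tested. In the sums below, WT at day 8 stands for plate C344. For clone 3B77 Y-linked reads were found in 0 of 71 cells at day 6 and in 11 of 40 on plate C378, the library labelled 3B77 at day 8, which goes against its label. Neither C343 nor C378 held a cell with 5 reads in any of the 8 markers. Of the doubtful plates, only C344 contributed neural progenitor-like cells, and among these 0 of 15 had Y-linked reads, against 6 of 9 at day 6 of WT. Shares, counts over gene lists and cell classes, and fitted differences are also given without C344, and levels are given by plate. Counts of cells with a single gene include its 15 cells.

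Neural progenitor-like cells were found on 7 of the 10 plates, and their share ranged widely between clones of the same genotype. At day 6 they made up 23 of 72 cells of clone 3A38 (31.9%, exact binomial 95% interval 21.4 to 43.99) but 0 of 80 cells of clone 3A2 (0%, 0 to 4.51). Both are 3AKO, and their intervals did not overlap. In the 3BKO clones at day 6 the shares were 5 of 58 cells in 3B126 (8.62%, 2.86 to 18.98) and 13 of 71 in 3B77 (18.3%, 10.1 to 29.3). In WT at day 6 the share was 9 of 67 cells (13.4%, 6.33 to 23.97), within the intervals of both 3BKO clones.

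At day 8 the highest share was that of 3B126, with 27 of 51 cells (52.9%, 38.5 to 67.1). Clone 3A38 had 17 of 72 (23.6%, 14.4 to 35.1). WT plate C344 had 15 of 68 (22.1%, 12.9 to 33.8), while C343 had 0 of 21 (0%, 0 to 16.1) and the library labelled 3B77 had 0 of 40 (0%, 0 to 8.81). The intervals cover the counting of cells only.

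**Figure D1:**
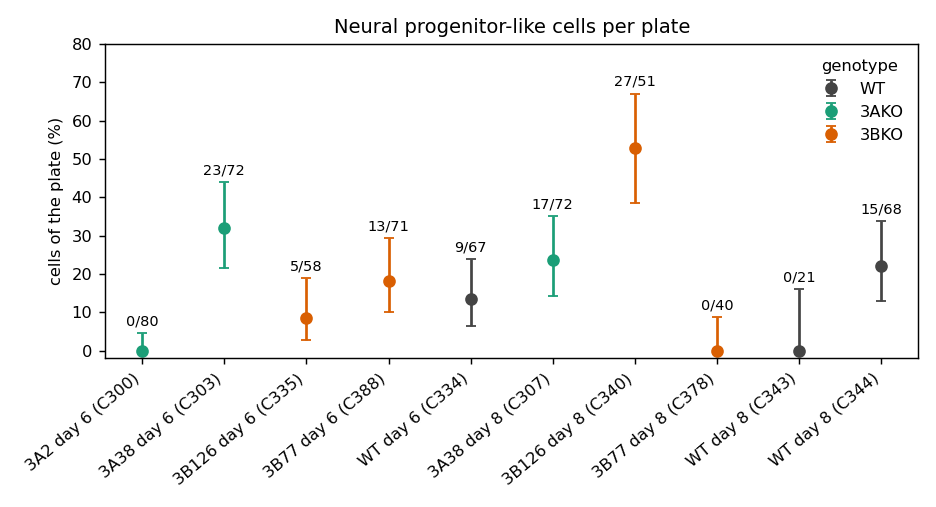
Share of neural progenitor-like cells on each of the 10 plates (y axis, percent of the plate's cells), ordered by day, with exact binomial 95% intervals as bars and the counts above them. Points are grey for WT, green for 3AKO and orange for 3BKO. The shares run from 0% on 3 plates to 52.9% in 3B126 at day 8.

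Taken over clones, the difference in share between 3BKO and the other genotypes was within the spread between clones at both days. At day 6 they averaged 13.5% in the 3BKO clones (SD 6.85, n = 2) and 15.1% in the clones of WT and 3AKO (SD 16.04, n = 3), a difference of -1.66 points (exact permutation test, two-sided, p = 1, where the smallest p that the design allows is 0.1). At day 8 they averaged 26.5% (SD 37.4, n = 2) and 20.2% (SD 4.78, n = 2), a difference of 6.24 points (exact permutation test, two-sided, p = 1, smallest possible 0.3333). Single clones set these differences. At day 6 the difference became 6.75 points without 3A38 and 3.18 points without 3B126, and at day 8 -20.2 points without 3B126 and 32.7 points without 3B77. Without plates C343, C344 and C378 only 3B126 and 3A38 remained at day 8, 29.3 points apart and with no test possible. Within batch 2, 3B126 minus WT was -4.81 points at day 6, and at day 8 3B126 was 30.9 points above WT plate C344 and 36.1 points above both WT plates together.

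The change with time also had no common direction. From day 6 to day 8 the share went from 8.62% to 52.9% in 3B126, a change of 44.3 points. It changed by -8.33 points in 3A38 and by 3.42 points in WT, or by 8.63 points with C344 as the day 8 plate. In 3B77 it changed by -18.3 points, a value that rests on plate C378.

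The number of reads per cell bears on a rule set in reads. The neural progenitor-like cells had a median of 285561 reads, 5891 detected genes and 15.0% mitochondrial reads, and the other cells 245466 reads, 5666 genes and 18.04%. Median reads were higher in the neural progenitor-like cells on every plate that held them, as in 3A38 at day 8 with 502363 against 257254. Shares of cells with at least 5 reads of a gene were not adjusted for this. After every cell was thinned to 50000 reads, 44 cells still met the rule with 5 reads per marker, and 125 met it with 1 read per marker. With 1 read the shares at day 6 were 31.9% in 3A38, 23.9% in 3B77, 22.4% in WT, 6.90% in 3B126 and 0% in 3A2. At day 8 they were 56.9% in 3B126, 29.4% on C344 and 23.6% in 3A38. With 5 reads after thinning the shares were lower, at 11.1% in 3A38, 1.41% in 3B77 and 0% in WT and 3B126 at day 6, and at 27.5% in 3B126, 18.1% in 3A38 and 11.8% on C344 at day 8. With 10 reads per marker and all reads, WT and 3B126 at day 6 stood at 2.99% and 1.72%. Most cells of WT and the 3BKO clones at day 6 thus no longer met the stricter rules.

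The targeted genes were examined on these plates. Dnmt3a (GRCm38, chr12:3806007-3914443, plus strand), a de novo DNA methyltransferase, had at least 5 reads in 1 of 23 and 2 of 17 neural progenitor-like cells of 3A38, at days 6 and 8. On the other plates it had them in 1 of 5 (3B126, day 6), 12 of 27 (3B126, day 8), 6 of 13 (3B77), 3 of 9 (WT, day 6) and 6 of 15 (C344). Over all cells of a plate, Dnmt3a stood at 0.898 to 3.13 CPM (reads of a gene scaled to a common total of reads) on the 3 plates of 3AKO and at 14.1 to 94.5 CPM on the other 7. Dnmt3b (chr2:153649450-153687730, plus strand), the second de novo enzyme, was read in 3BKO cells as well, with at least 5 reads in 2 of 5, 3 of 27 and 4 of 13 neural progenitor-like cells of 3B126 at day 6, 3B126 at day 8 and 3B77. The exons that the deletion removes are not stated in the sources read here. Reads summed over the gene therefore do not check the 3BKO label.

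No single marker was shared by all neural progenitor-like cells. Fabp7 (chr10:57784881-57788450, plus strand) had at least 5 reads in 95 of 109 (87.2%), Zic1 in 77 (70.6%), Pax3 in 70 (64.2%), Sox1 and Pou3f2 in 53 each (48.6%), Pax6 in 45 (41.3%), Sox21 in 43 (39.4%) and Hes5 in 28 (25.7%). Among the other cells, where by the rule at most 2 markers could reach 5 reads, these shares lay between 1.43% for Hes5 and 9.37% for Sox1. The 109 cells carried 65 different combinations of markers, 39 of which occurred in 1 cell only, and the most frequent, Pax3 with Fabp7 and Zic1, was found in 7 cells. No cell had all 8 markers, and 5 cells had 7.

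Pairs of markers were unevenly joined. Of the 53 cells with Pou3f2, 48 also had Fabp7 (90.6%) and 41 had Zic1 (77.4%), whereas 16 had Pax6 (30.2%). Of the 43 cells with Sox21, 29 had Sox1 (67.4%) and 4 had Hes5 (9.30%). Hes5 was joined by Sox21 in 14.3% of its 28 cells and by Zic1 in 60.7%. These shares are set in part by the rule, which asks for 3 markers.

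The marker sets differed from plate to plate. Sox1 reached 5 reads in 4 of 5 cells of 3B126 at day 6, 10 of 13 of 3B77, 7 of 9 of WT at day 6 and 17 of 27 of 3B126 at day 8, but in 7 of 23 and 2 of 17 cells of 3A38 at days 6 and 8. Zic1 went the other way, with 20 of 23 and 16 of 17 in 3A38 against 0 of 5 in 3B126 at day 6 and 4 of 13 in 3B77. Fabp7 was found in all 27 cells of 3B126 at day 8 and all 15 of C344, and in 5 of 13 of 3B77. Hes5 ranged from 1 of 27 in 3B126 at day 8 to 8 of 15 on C344. Of the 3 plates with day 6 cells of 3BKO or WT, each had Sox1 as its most frequent marker, alone or tied, while on the 4 other plates Fabp7 was the most frequent, in 3A38 at day 8 together with Zic1.

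**Figure D2:**
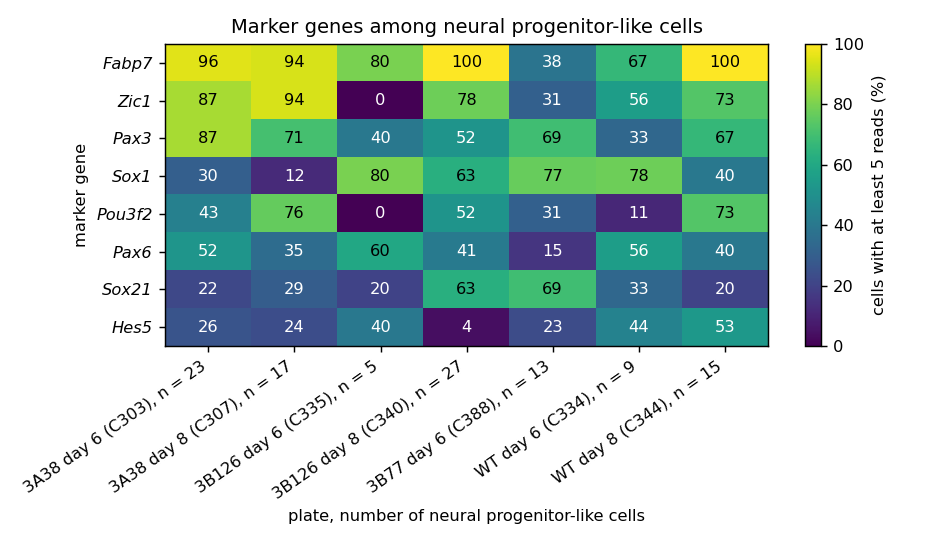
Percent of neural progenitor-like cells (colour and number) with at least 5 reads of each marker gene (rows) on the 7 plates that held such cells (columns, with the number of cells). Fabp7 is most widespread in 3A38, in 3B126 at day 8 and on C344, and Sox1 in the day 6 plates of 3B126, 3B77 and WT.

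Levels of the markers, in CPM of the summed reads of a plate's neural progenitor-like cells, spread as widely as their frequencies. Fabp7 was at 435 and 2639 CPM in 3A38 at days 6 and 8, at 624 in 3B126 at day 8 and at 615 on C344, whereas the day 6 sums of 3B126, WT and 3B77 had 10.8, 28.3 and 30.4 CPM. Pax3 was at 129 and 509 CPM in 3A38, at 115 on C344 and at 59.8 in 3B126 at day 8, against 5.07 to 40.9 CPM on the other 3 plates. Pax6 was at 304 CPM in 3B126 at day 6, with 68.96% of those reads in 1 of its 5 cells, and at 12.4 to 64.6 CPM elsewhere. Single cells carried large parts of many such sums, since a plate's sum held 5 to 27 cells.

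Hes5 (chr4:154960923-154962371, plus strand) was the least frequent marker and the one most directly tied to Notch signalling, so its promoter is shown. The 250 bases before its RefSeq start (GRCm38.p6, chr4:154960673-154960922, plus strand) held 2 copies of the letters GTGGGAA or its reverse TTCCCAC, the core of the site bound by RBPJ, the DNA-binding partner of Notch. The copies are in capitals and start at bases 25 and 168.
Hes5 promoter: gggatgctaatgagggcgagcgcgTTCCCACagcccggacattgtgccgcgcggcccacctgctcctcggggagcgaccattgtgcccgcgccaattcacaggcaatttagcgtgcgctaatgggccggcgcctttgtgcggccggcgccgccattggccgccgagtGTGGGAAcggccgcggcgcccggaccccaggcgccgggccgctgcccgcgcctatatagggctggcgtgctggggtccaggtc
These letters, on either strand, were found in 6.38% of all 32851 promoter windows of the same RefSeq table (250 bases before and 50 after each start). Of the 8 windows of the 7 marker genes in that table, only that of Hes5 held them. A match describes the letters and is not evidence of binding.

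The cells just inside and just outside the rule are set side by side. The 42 cells with 3 markers had a median of 255854 reads, fewer than the 363445 reads of the 48 cells with 2. Their summed level of 22 other neural progenitor genes, none of them in the rule, had a median of 1652 CPM, against 1582 CPM with 2 markers, 1122 CPM in the 345 cells with no marker and 2584 CPM in the 67 cells with 4 or more. Their summed level of epiblast and pluripotency genes had medians of 29.1 CPM with 3 markers, 58.02 with 2 and 109 with none. In the neural genes the cells with 3 markers thus lay nearer to those with 2 than to those with 4 or more.

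Genes outside the rule were used to check the label. Sox2, a factor of neural progenitors and of pluripotent cells alike, had at least 5 reads in 56 of 109 neural progenitor-like cells (51.4%) and in 157 of 491 others (31.98%). Nes, the intermediate filament nestin, was found in 49 (44.95%) against 82 (16.7%), and Msi1, the RNA-binding protein Musashi, in 40 (36.7%) against 18 (3.67%). Pou3f3, a close relative of Pou3f2, was found in 49 (44.95%) against 18 (3.67%). Sox3, by contrast, reached 5 reads in 4 cells (3.67%) and Pou3f1 in 0 of 109, which allows a share of up to 2.75%. Sox11, a factor of progenitors and young neurons, was nearly universal, in 108 cells (99.1%) against 309 (62.9%). Of the 22 genes of this list 1, Msi1, was higher in these cells on every plate, against 0.337% of all 10393 genes compared, and likewise without C344. The list's median difference was 0.79 on the log2 scale. The label did not hold equally on all plates. In 3B126 at day 6 the list summed to 973 CPM in these cells and 1352 CPM in the others, Sox11 was at 349.6 against 544 CPM, and Nes and Pou3f3 reached 5 reads in 0 of 5 cells. In 3B77 the list was at nearly the same level in both, 1557 and 1464 CPM, while on the 5 other plates it was higher in the neural progenitor-like cells by 0.27 to 1.55 on the log2 scale. For 3B126 at day 6 the name therefore stands for the rule alone.

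Other cell classes, each called by at least 3 of 8 markers with 5 reads, were rare among these cells, except neurons and epiblast. Markers of neurons were met by 33 of 109 (30.3%, 21.8 to 39.8), against 96 of 491 others (19.6%). Markers of epiblast were met by 6 (5.505%, 2.05 to 11.6) against 157 (31.98%), and 4 of these 6 were 3B126 cells at day 8. Markers of neural crest were met by 2 cells and of blood by 1, and those of mesenchyme, endothelium and endoderm by 0 of 109. The defining markers Cdh5 of endothelium, Ptprc of blood, and Foxa1, Afp and Ttr of endoderm had no read in the sums of these cells. The summed endothelial markers lay at 0 to 22.4 CPM per plate in these cells and at 0.932 to 663 CPM in the others, and the summed neuron markers at 217 to 945 CPM and at 214 to 6043 CPM. The shares of neuron markers were highest in the day 6 plates of 3BKO, with 3 of 5 cells of 3B126 and 6 of 13 of 3B77, and lowest at day 6 of WT, with 1 of 9. The other cells of these 3BKO plates were high too, with 20 of 53 (37.7%) and 24 of 58 (41.4%). Only in 3A38 at day 8 did the others have the higher share, 21 of 55 against 4 of 17. Of the 350 others on the 7 plates that held neural progenitor-like cells, 82 met the neuron markers (23.4%) and 97 the epiblast markers (27.7%). Without C344, 29 of 94 neural progenitor-like cells met the neuron markers (30.9%), against 78 of 297 others (26.3%). The epiblast markers were then met by 6 of 94 against 76 of 297 (25.6%).

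Against the other cells of the same plate, 35 genes were higher on every one of the 7 plates with a mean difference of at least 1 on the log2 scale, which is 0.337% of the 10393 genes that passed a filter of 5 CPM. Another 164 genes (1.58%) were lower on every plate. Differences are of log2(CPM + 5) of summed reads, which understates the change of low genes, and the median over all 10393 genes was -0.05. No test was run, since the cells were chosen by their transcripts. Without C344 the counts were 38 and 197, of which 30 and 143 were among the 35 and 164. Among plates left out 1 at a time, the higher side moved most without 3B126 at day 6, the plate with 5 such cells, to 83 genes, and was at 55, 56 and 63 genes without 3A38 at day 8, WT at day 6 and 3B77. The lower side then moved most without 3B126 at day 8, to 247 genes.

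The 12 genes that led the higher side, outside the rule, had mean differences of 1.41 to 2.72, or 1.29 to 2.55 without C344. Sfrp2 (chr3:83766321-83774316, plus strand), a secreted modulator of Wnt signalling, was at 382 and 106 CPM in neural progenitor-like cells of 3A38 at days 6 and 8, 480 in 3B126 at day 8, 359 on C344, 63.9 in WT at day 6, 42.7 in 3B77 and 18.4 in 3B126 at day 6. In the other cells it was at 8.09 to 27.3 CPM, below those of the same plate each time (mean difference 2.72, SD 1.63, n = 7 plates). It had at least 5 reads in 26 of 27 cells of 3B126 at day 8 and 21 of 23 of 3A38 at day 6.

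Crabp2 (chr3:87948666-87953376, plus strand), a carrier protein that brings retinoic acid to its receptors, had at least 5 reads in 104 of the 109 cells (95.4%) and in 183 of 491 others (37.3%). Its level was 87.8 to 993 CPM in neural progenitor-like cells and 41.3 to 137 CPM in the others (mean difference 2.27, SD 1.33, n = 7). The 87.8 CPM of 3B126 at day 6 lay below the 137 CPM of other cells of 3B77, so that the sets overlapped between plates and not within one. In 3A38 at day 8, 1 cell held 78.3% of its reads.

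Smaller differences were found for 10 further leading genes. Pcdh8, a protocadherin of paraxial and neural tissue, differed by 2.24 (SD 1.68), Irx2, an Iroquois factor of neural patterning, by 2.05 (SD 0.997), and Srgap3, a regulator of the actin skeleton in migrating neural cells, by 1.92 (SD 1.18). Mir124-2hg, the host transcript of a gene of the neuronal microRNA miR-124, differed by 1.77 (SD 0.847), at 13.6 to 189 CPM in these cells. Fzd3, a Wnt receptor, was at 274 to 875 CPM and reached 5 reads in all 27 cells of 3B126 at day 8, all 23 of 3A38 at day 6, all 15 of C344 and all 9 of WT at day 6 (difference 1.75, SD 0.920). Lrp4, a co-receptor that dampens Wnt signalling, differed by 1.63 (SD 0.755), and Nr2f2, the nuclear receptor COUP-TFII, by 1.62 (SD 0.982). Ildr2, Stxbp4 and Msantd4 completed the list with 1.70, 1.44 and 1.41. For Ildr2 the smallest difference on a plate was 0.01, and for Msantd4 in 3A38 at day 8 1 cell held 86.2% of the reads, and on C344 85.5%. For Pcdh8, Ildr2 and Nr2f2, 1 of 5 cells held all reads in 3B126 at day 6. For Pcdh8, 1 cell also held 95.4% in 3A38 at day 8 and 89.7% in WT at day 6. In 3B77 Pcdh8 was at 5.43 against 2.98 CPM.

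Sfrp2 is shown with the 250 bases before its start (GRCm38.p6, chr3:83766071-83766320, plus strand), since it led the higher genes and POU factors such as Pou3f2 are among the markers. The capitals mark the octamer letters ATTTGCAT, the reverse of ATGCAAAT, which POU factors bind, starting at base 204.
Sfrp2 promoter: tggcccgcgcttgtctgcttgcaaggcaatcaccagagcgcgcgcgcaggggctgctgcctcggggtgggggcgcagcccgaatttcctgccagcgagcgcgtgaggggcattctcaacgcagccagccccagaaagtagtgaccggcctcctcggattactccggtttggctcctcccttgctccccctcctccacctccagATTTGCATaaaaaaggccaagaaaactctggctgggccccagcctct
The octamer, on either strand, was found in 1.74% of all 32851 windows, in 2 of the 8 windows of leading genes that the table holds (Sfrp2 and Pcdh8) and in 1 of the 8 windows of marker genes (Sox1). With so few windows these counts are a description only.

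The 12 leading lower genes had mean differences of -4.06 to -2.66, or -3.88 to -2.52 without C344. Dppa5a (chr9:78367052-78368177, minus strand), a marker of pluripotent cells, was at 0 CPM in 4 of the 7 sums of neural progenitor-like cells, at 2.27 and 8.70 CPM on C344 and in 3A38 at day 6, and at 115 CPM in 3B126 at day 8, where 7 of 27 cells had at least 5 reads. In the other cells its mean was 299 CPM (mean difference -4.06, SD 1.80, n = 7). Asb4, an imprinted gene of the early embryo, differed by -3.80 (SD 1.44), Lefty2, an antagonist of Nodal signalling, by -3.49 (SD 1.07), Tdgf1, the Nodal co-receptor Cripto, by -2.92 (SD 1.22) and Zfp42, the pluripotency factor Rex1, by -2.84 (SD 1.44). Ifitm1, Spp1, Car2, S100a10, Klf8, Fbxo15 and the imprinted Peg3 made up the rest of the leading genes, with differences of -3.45 to -2.66. For Spp1 and Fbxo15 the differences in 3A38 at day 6 were only -0.029 and -0.165, with both sets of cells near 0 CPM. In 3B126 at day 8, Lefty2, Spp1, Tdgf1, Zfp42 and Fbxo15 were at 29.4 to 72.7 CPM, above every other plate's sum of these cells.

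**Figure D3:**
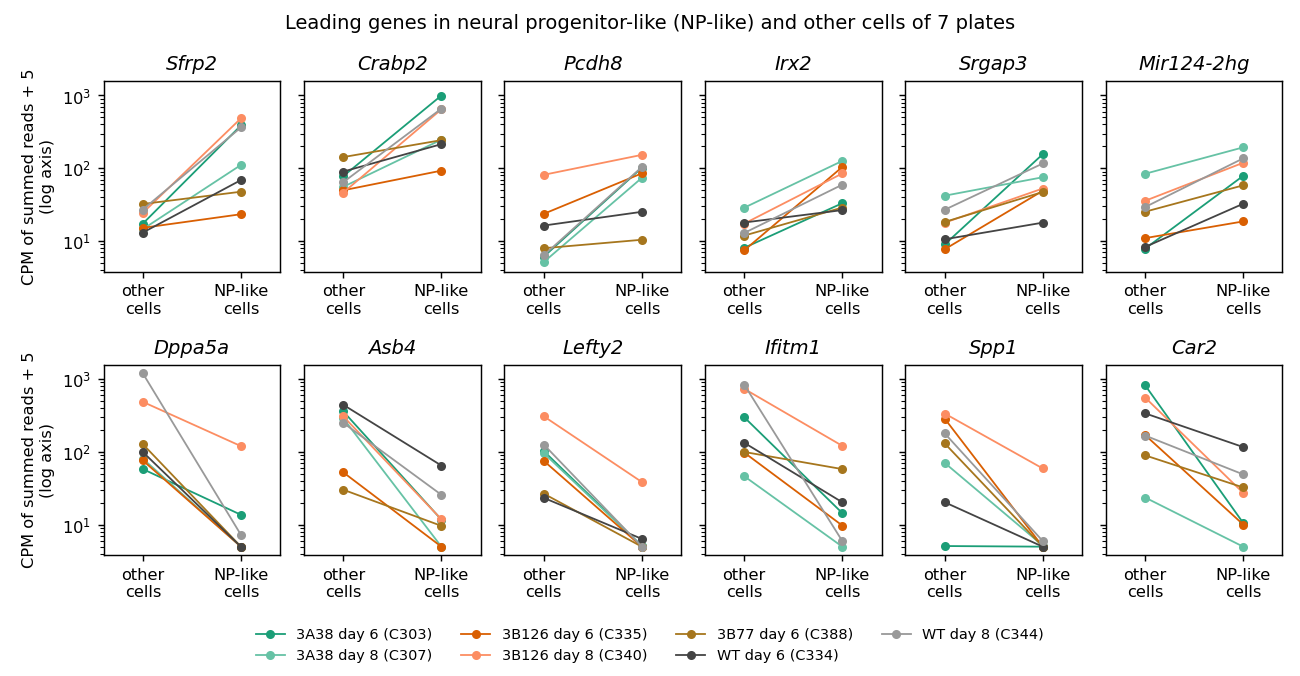
Level of the 6 leading higher and the 6 leading lower genes (CPM of summed reads plus 5, log axis) in other cells and in neural progenitor-like (NP-like) cells, with 1 line per plate. Every line rises for Sfrp2, Crabp2, Pcdh8, Irx2, Srgap3 and Mir124-2hg and falls for Dppa5a, Asb4, Lefty2, Ifitm1, Spp1 and Car2. The Spp1 line of 3A38 at day 6 is nearly flat (-0.029 on the log2 scale), with both values near 0 CPM.

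Counted over gene lists, the epiblast and pluripotency genes stood lowest. Of 18 such genes 10 were lower on every plate (Dppa4, Dppa5a, Esrrb, L1td1, Lefty1, Lefty2, Tdgf1, Tdh, Utf1 and Zfp42), and 0 higher, against 1.58% of all genes lower, with a median difference of -1.18 against -0.05 over all genes. Without C344, 8 of the 18 were lower on every plate. Pou5f1, which encodes Oct4, was not among the 10, since it was lower on 6 of 7 plates, and it had at least 5 reads in 14 of the 109 cells (12.8%), 7 of them of 3B77, against 139 of 491 others (28.3%). Lower on every plate were also Epcam and Krt8 of 12 epithelial genes, Hand1 and Pdgfra of 16 mesenchyme genes, Kdr and Tek of 12 endothelial genes, Lmo2 of 10 blood genes and Dab2 of 12 endoderm genes, and the counts of these 5 lists were 2, 3, 2, 1 and 1 without C344. Outside these lists, T (Brachyury), the factor of the primitive streak, was at a mean of 0.197 CPM in these cells and 29.8 CPM in the others, and the ligands Bmp4, Dkk1 and Wnt5a differed by -1.65, -1.74 and -1.87 on the log2 scale. These 4 were chosen from the 164 after their values were seen.

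Summed per plate, 2 of 21 lists were higher in neural progenitor-like cells on all 7 plates, radial glia and retinoic acid, and 4 were lower on all 7, epiblast and pluripotency, endothelium, blood and endoderm. Crabp1 and Crabp2 had the highest mean levels of the retinoic acid list, and were higher on 6 and 7 of the 7 plates. The median difference of its 15 genes was 0.04, Rdh10, an enzyme of retinoic acid synthesis, was higher on 2 of 7 plates (-1.28, SD 1.41), and Rarg, a receptor, reached 5 reads in none of the 109 cells and in 33 of 491 others. Of 12 radial glia genes, Nr2f2 was higher on every plate, and Ednrb and Nr2f1 on 6 of 7, with at least 5 reads in 45 cells each (41.3%) against 5.70% and 6.52% of the others. Slc1a3, a glutamate transporter of radial glia, went the other way, higher on 1 of 7 plates. Without C344, 1 radial glia gene (Nr2f2) was higher on every plate and 2 (Nfib and Slc1a3) were lower. The log2 ratio of the summed radial glia list was only 0.18 in 3B126 at day 6 and 0.22 in 3B77, against 0.56 to 2.25 on the other plates. In 3B126 at day 6 all Nr2f2 reads were in 1 of 5 cells. Of 16 Notch genes beside Hes5 none was higher or lower on every plate. Their median difference was 0.06, and Rbpj had at least 5 reads in 56.9% of these cells and 52.5% of the others. A single cell could set such a sum, as in the mesenchyme list of 3B126 at day 6, where Prrx1 stood at 169 CPM with 96.8% of its reads in 1 of 5 cells.

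**Figure D4:**
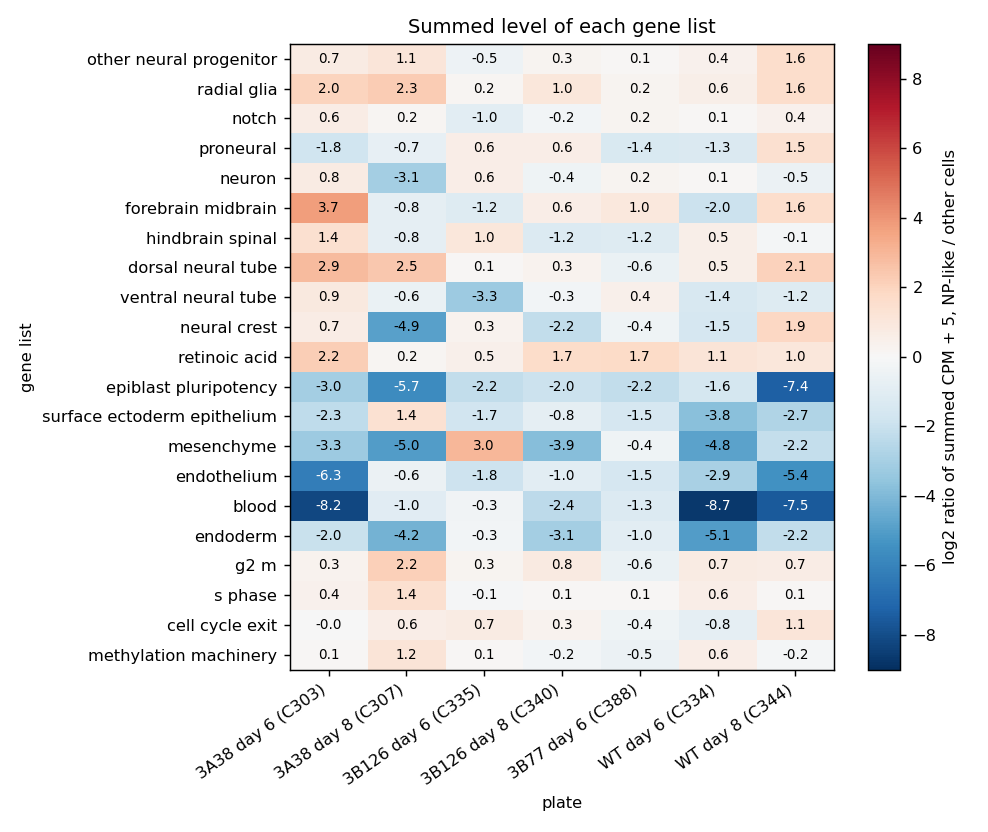
Log2 ratio of summed CPM plus 5 of each gene list (rows) between neural progenitor-like and other cells of the same plate (columns), as colour and number. Radial glia and retinoic acid genes are positive on all 7 plates, and epiblast and pluripotency, endothelium, blood and endoderm genes negative on all 7.

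With all plates pooled, genes of the dorsal neural tube were found together in most of these cells, and those of the ventral tube were not. At least 3 of 14 dorsal genes reached 5 reads in 67 of the 109 cells (61.5%) and in 69 of 491 others (14.1%), with Zic2 in 84 cells (77.1%), Zic5 in 49 (44.95%), Msx3 in 37 (33.9%) and Olig3, a factor of dorsal progenitors, in 36 (33.03%). At least 1 of 11 ventral genes reached 5 reads in 52 of 109 cells (47.7%) and 238 of 491 others (48.5%), mostly Ptch1, the receptor of Shh, in 48 cells (44.04%). At least 3 ventral genes were found in 3 of 491 others and in 0 of 109 cells, a count that allows up to 2.75%. Shh, the ventral signal, reached 5 reads in none of the 109. Pax3 and Zic1 of the rule are themselves dorsal, so that the rule takes up dorsal cells more readily than ventral ones. Without C344, 57 of 94 cells (60.6%) had at least 3 dorsal genes and 0 at least 3 ventral ones. Of the 350 others on the 7 plates that held these cells, 60 had at least 3 dorsal genes (17.1%). By plate the share was lowest in 3B126 at day 8, with 12 of 27 cells against 3 of 24 others, and in WT at day 6, with 4 of 9 against 9 of 58. The summed dorsal list was higher in these cells on 6 plates and lower on 1, 3B77, at 144 against 220 CPM.

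Position from head to tail was mixed. At least 1 of 18 forebrain and midbrain genes was found in 57 of 109 cells (52.3%) and at least 1 of 17 Hox genes, which mark the hindbrain and spinal cord, in 49 (44.95%), against 175 (35.6%) and 123 (25.1%) of 491 others. Of the 350 others on the 7 plates that held neural progenitor-like cells, 143 (40.9%) and 104 (29.7%) had such genes. Without C344 the counts in the neural progenitor-like cells were 50 and 44 of 94 cells. Six3 of the forebrain reached 5 reads in 0 of the 109 cells, while the midbrain gene En2 did in 13 (11.9%). The Hox genes were found in 20 of 23 cells of 3A38 at day 6, 14 of 27 of 3B126 at day 8 and 1 of 13 of 3B77. The others of these plates had them in 25 of 49, 6 of 24 and 14 of 58. In 3A38 at day 8 they were found in 4 of 17 cells, against 26 of 55 others. The excess thus did not hold on every plate. The summed list of hindbrain and spinal cord genes was higher in neural progenitor-like cells on 3 plates and lower on 4. Of the 23 cells of 3A38 at day 6, 16 had Hoxa2 and 16 had Hoxb1, the genes of the anterior hindbrain, and 8 had at least 3 Hox genes. Egr2, a marker of hindbrain segments, was found in 6 of 27 cells of 3B126 at day 8, in 3 of 9 of WT at day 6, in 1 of 15 on C344, and in none of the 4 other plates.

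The retinoic acid pathway patterns the hindbrain and spinal cord and drives neural differentiation. At least 3 of its 15 genes were found in 64 of 109 cells (58.7%) and 125 of 491 others (25.5%), or 56 of 94 cells without C344. In 3A38 at day 8 and 3B126 at day 6 this share was below that of the other cells, at 23.5% against 34.5%, and at 1 of 5 cells against 22.6%. Crabp1, a retinoic acid-binding protein, was at 10538 CPM in 3B126 at day 8, with all 27 cells at 5 reads or more, at 12776 on C344, at 5957 in 3A38 at day 6 and at 2039 in WT at day 6. It was at 507 and 57.4 CPM in 3B77 and 3B126 at day 6, and at 0.533 CPM in 3A38 at day 8, where 1 of 17 cells had it. Cyp26b1, which degrades retinoic acid, was at 212 CPM in 3A38 at day 8 and at 0 to 24.02 CPM on the other plates, and reached 5 reads in 17 cells (15.6%) against 10 of 491 others (2.04%).

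The sum of the 3A38 cells at day 8 lay outside the range of the other 6 sums for several genes. Its Zeb2, a zinc finger factor of neural progenitors, was at 1983 CPM against 34.5 to 89.9 on the other 6 plates, in 13 of 17 cells. Pou3f3 was at 756 CPM against 0 to 66.2, in 16 of 17 cells, and Tet3, a DNA demethylase, at 1097 CPM against 14.2 to 65.5, in 13 of 17. Snap25, a protein of synaptic vesicle release, was at 594 CPM against 0 to 2.90, but in 4 of 17 cells. Prtg, protogenin of the early neural plate, was at 2.93 CPM against 163 to 354. Most of these differences were those of the whole plate. Its other cells had Tet3 at 451 CPM against 3.18 to 70.1 CPM in the other cells of the 6 plates, Snap25 at 225 against 0 to 10.2, Pou3f3 at 39.1 against 0 to 11.7 and Prtg at 6.43 against 109.8 to 249.5. For Zeb2 they were at 47.3 CPM against 23.9 to 47.5, within the range. The neural progenitor-like cells had a median of 3860 detected genes, against 5474 to 7432 on the other plates, at a median of 502363 reads, and the part of this in the values was not tested.

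Neuron genes and cell cycle genes were present in the same cells. Tubb3, the neuronal tubulin, had at least 5 reads in 75 of 109 cells (68.8%) and 195 of 491 others (39.7%), and Stmn2, a growth cone protein, in 66 (60.6%) and 304 (61.9%). Both were found in all 5 cells of 3B126 at day 6 and all 13 of 3B77. None of 18 neuron genes and none of 12 proneural genes was higher or lower on every plate, with median differences of -0.58 and 0.11 over all their genes and of -0.79 and -0.42 over the 16 and 5 that passed the filter. Dcx, doublecortin of young neurons, reached 5 reads in 4 cells (3.67%).

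Genes of the dividing cell were found in most of these cells, with gaps of either sign to the others of a plate. At least 3 of 18 genes of the G2 and M phases were found in 92 of 109 cells (84.4%) and in 287 of the 350 other cells of the same 7 plates (82.0%), or 79 of 94 and 239 of 297 without C344. In 3A38 they were found in 17 of 23 against 46 of 49 at day 6, and in 9 of 17 against 13 of 55 at day 8. Of these genes 0 of the 18 and 0 of 16 S phase genes differed in 1 direction on every plate by the size asked. Top2a was at a mean of 819 CPM (SD 468, n = 7 plates) against 405 CPM (SD 224), higher on 6 of 7. Pcna and Rrm2, genes of DNA replication, were higher on all 7 by a mean of 0.48 and 0.80, short of 1. Of 8 genes of cell cycle exit, Cdkn1a, the inhibitor p21, was lower on every plate (-1.10, SD 0.37) and Cdkn1b, the inhibitor p27, reached 5 reads in 59 cells (54.1%) against 129 of 491 others (26.3%). By level, Cdkn1b was higher on only 4 of 7 plates (0.70, SD 1.06).

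Day and genotype were compared over sums of neural progenitor-like cells per clone and day. The 7 sums held 2864838 to 11265623 reads, and the fit was additive in day and in 3BKO against WT and 3AKO. With edgeR's quasi-likelihood test, 0 of 12298 genes (0.0%) passed an adjusted p of 0.05 between day 8 and day 6, with 524 (4.26%) at an unadjusted p under 0.05 and a lowest adjusted p of 1. DESeq2 called 93 of them (0.756%, 48 higher and 45 lower at day 8). Between 3BKO and the other clones edgeR called 0 (0.0%), with 397 (3.23%) at an unadjusted p under 0.05 and a lowest adjusted p of 0.792, and DESeq2 called 58 (0.472%, 25 higher and 33 lower). Without C344 edgeR also called 0 in both, with lowest adjusted p of 0.178 and 0.280. At day 6 alone, with 1 sum for each of 4 clones, edgeR called 0 of 10297 genes for 3BKO (434 at an unadjusted p under 0.05, lowest adjusted p = 0.998). The sums of 1 group varied greatly, with a common dispersion of 1.11.

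The values behind this are given for the genes of most interest, as CPM scaled with TMM factors. Dnmt3b was at 67.3 and 60.3 CPM in WT and 3B126 at day 6, and at 15.7 and 5.81 in 3B77 and 3A38 at day 6. At day 8 it was at 3.68, 3.22 and 1.01 CPM in WT, 3B126 and 3A38, below all 4 sums of day 6 (log2 difference -3.80, SE 1.22, edgeR adjusted p = 1, DESeq2 adjusted p = 0.0432), and without C344 the difference was -4.15 (SE 1.49, edgeR adjusted p = 0.924). In 3B126 at day 6, 1 of 5 cells held 91.9% of the Dnmt3b reads. The other cells of the same plates, in CPM without TMM factors, had less Dnmt3b at day 8 as well. They went from 71.98 to 2.75 CPM in WT, with C344 as the day 8 plate. In 3B126 they went from 36.7 to 5.12 CPM, and in 3A38 from 13.8 to 0.631 CPM. The fall was therefore not confined to the neural progenitor-like cells. The Dnmt3b difference between 3BKO and the other clones was 0.22 (SE 1.04, edgeR adjusted p = 0.9997). Dnmt3a was at 1.29 and 4.05 CPM in the 3A38 sums and at 8.49 to 24.7 CPM in the 5 others, so that the 3AKO sums lay below all others.

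Crabp1 showed how far sums of 1 day lay apart, with 0.76 CPM in 3A38 against 9227 and 10335 CPM in 3B126 and WT at day 8. Rab3c, a small GTPase of synaptic vesicles, had the lowest adjusted p for genotype by both tools. It was at 0 CPM in all 3 sums of 3BKO and at 6.21, 156, 7.15 and 109 CPM in 3A38 at days 6 and 8 and in WT at days 6 and 8 (edgeR adjusted p = 0.792, or 0.377 without C344, and DESeq2 adjusted p = 2.17e-08), but in 3A38 at day 8 it rested on 5 of 17 cells and on C344 on 2 of 15. Otx2, a head and epiblast factor, was at 111, 170 and 32.1 CPM in the 3BKO sums of 3B126 and 3B77 at day 6 and 3B126 at day 8, and at 1.39 to 27.2 CPM in the 4 others (log2 difference 2.30, SE 0.98, edgeR adjusted p = 0.9997). Olig3 was at 1.34, 1.71 and 23.9 CPM in these 3BKO sums and at 10.5 to 218 CPM in the others (-3.92, SE 1.09, edgeR adjusted p = 0.9997, DESeq2 adjusted p = 0.0198). Without C344 the differences were 3.32 for Otx2 and -4.44 for Olig3. The groups overlapped for Olig3 and not for Otx2, and neither passed edgeR's test. The narrow gap for Otx2, between 27.2 and 32.1 CPM, rested on single cells. In 3B126 at day 8 Otx2 reached 5 reads in 3 of 27 cells, with 82.4% of its reads in 1. In 3A38 at day 6 it did so in 2 of 23 cells, with 95.5% of its reads in 1. In WT it did so in 3 of 9 cells at day 6 and in 3 of 15 on C344. The day 6 sums of 3B126 and 3B77 had Otx2 in more of their cells, 4 of 5 and 8 of 13. There 1 cell held 41.8% and 37.3% of the reads. The other cells of these plates had Otx2 at 173 and 104 CPM, without TMM factors. On the remaining plates with neural progenitor-like cells the others had 0 to 76.4 CPM.

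For day, Cyp26b1 was at 0 to 6.69 CPM in the 4 sums of day 6 and at 16.5, 19.4 and 302.7 CPM at day 8 (log2 difference 6.13, SE 1.32, edgeR adjusted p = 1, DESeq2 adjusted p = 0.000727), and the difference was 7.04 without C344 (edgeR adjusted p = 0.253). Fabp7, a marker of the rule, is given as values only, with 15.2 to 326 CPM at day 6 and 497 to 3767 CPM at day 8. In the lists, 2 of 21 other neural progenitor genes tested, 5 of 10 proneural genes and 3 of 11 dorsal genes were higher at day 8 at an unadjusted p under 0.05, against 4.26% of all genes in either direction, and 0 of them lower. Their median log2 differences were 0.65, 3.95 and 0.65, beside 0.06 over all genes. For 3BKO the median differences of these 3 lists were -0.73, -2.76 and -1.83, beside -0.06 over all genes. At an unadjusted edgeR p under 0.05, 1 other neural progenitor gene was higher and 1 lower in 3BKO. Lower were also 3 of 10 proneural genes and 1 of 11 dorsal genes. The share over all genes was 3.23% in either direction. Without C344, 0 of 4 proneural, 2 of 12 dorsal and 2 of 20 other neural progenitor genes were lower in 3BKO at this p, and 0 were higher. Over all genes it was 503 of 12280 in either direction. With edgeR none of the genes of these lists passed after adjustment, while DESeq2 called Pou3f3 and Pax7 for day and Olig3 for 3BKO. Without C344, 3 of 20, 1 of 4 and 3 of 12 genes tested were higher at day 8 at an unadjusted p under 0.05, so that the proneural count rests on that plate.

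**Figure D5:**
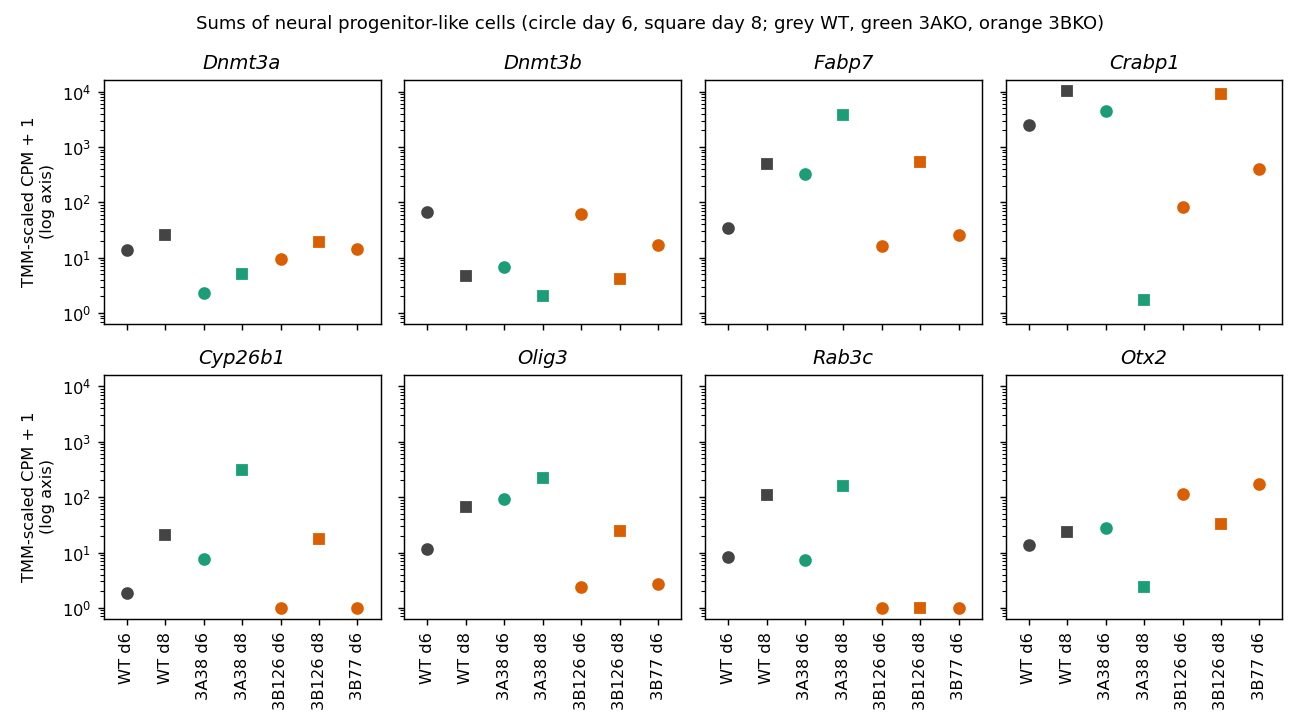
Level of 8 genes in the 7 sums of neural progenitor-like cells (TMM-scaled CPM plus 1, log axis), with circles for day 6, squares for day 8, and grey for WT, green for 3AKO (clone 3A38) and orange for 3BKO (clones 3B126 and 3B77). Dnmt3b is lower in all 3 day 8 sums than in any day 6 sum, Rab3c is at 0 in the 3 sums of 3BKO, and Crabp1 is near 0 in 3A38 at day 8 only.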

How the data were processed

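EB cells had been sorted singly into 96-well plates and their RNA amplified in the manner of Smart-seq2, without molecular identifiers, so that PCR copies count as reads. The authors deposited raw read counts per gene and cell (36849 genes, 965 cells). Per the study's methods and the submitters' processing notes, they aligned trimmed reads (Trim Galore 0.5.0, checked by FastQC 0.11.2) to mm10/GRCm38 with STAR 2.7.1a, counted exons by gene name with featureCounts 1.6.1, left out reads with several hits, which lowers genes with near-identical copies, and kept cells with at least 50000 assigned reads, 2000 genes and a mitochondrial share of no more than 50%. The sources used here do not say whether counting used strand. Reads of a gene and of an overlapping antisense gene therefore cannot be separated. No doublets were called, no well name was used by more than 1 cell, and no cell's counts were identical to another's. The 8 cells with NPM at the end of their title, a suffix that no source explains, were kept, and 2 of them met the rule.

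Cells of 1 plate are not replicates. Counts were summed over the neural progenitor-like cells of each clone and day with at least 5 such cells (7 sums) and over the other cells of those plates. Levels are CPM of summed counts. Genes with a mean of at least 5 CPM in either set were compared as log2(CPM + 5), and a gene was counted as higher or lower where every plate had that sign and the mean reached 1. The sum of a clone and day was the replicate for day and genotype, so that 3A38, 3B126 and WT enter the fit at both days and 3BKO rests on 2 clones. EdgeR 4.0.16 in R 4.3.3 (filterByExpr, TMM, glmQLFit and glmQLFTest with Benjamini-Hochberg adjustment, 4 residual degrees of freedom) was fitted to the 7 sums with day and 3BKO as terms and tested on simulated data, with DESeq2 1.42.0 as an alternative. WT has 1 sum per day, and a clone gave 1 pool of EBs per day, so that p-values measure the spread between clones and plates only. Shares were compared with exact permutation tests over clones (scipy 1.17.1), and intervals are exact Clopper-Pearson ones. Thinning drew 50000 reads per cell at random (numpy 2.4.6). Gene positions are those of GENCODE M21 on GRCm38, the build of the files, and promoters those of RefSeq on GRCm38.p6.

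The same 3 clones gave sums at both days, which pairs them by cell line. The deviations of paired sums from the means of their day, with genotype not taken out, had correlations of -0.0255 (3A38), -0.00655 (3B126) and -0.0218 (WT). The fit with the clone as a block was run as an alternative. The 8 markers, the gene lists and the tests were chosen with earlier results of these data known. Named genes were, for cells against cells, the 12 genes outside the rule with the largest mean difference in each direction among those of 1 sign on every plate, up to 6 examples per list by level, and Dnmt3a and Dnmt3b. For day and genotype the rule named genes called by the edgeR fit described here, of which there were none, so that Rab3c, Otx2, Olig3, Crabp1 and Cyp26b1 were chosen after their values were seen, as were genes named beyond the examples of a list and those that set the day 8 cells of 3A38 apart. Values of lists, classes and named genes without C344 were added after the data were seen.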

Additional observations from a re-analysis of the deposited data

How the results depend on the processing

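The number of neural progenitor-like cells depended on the rule, with 72 cells at 10 reads per marker, 67 at 4 markers and 44 after thinning to 50000 reads, against 109. The share of 3BKO minus other clones ranged from -9.22 to 6.75 points at day 6 and from -20.2 to 32.7 points at day 8 when single clones were left out, and was reversed at day 6 without 3A38 (6.75) or 3B126 (3.18) and at day 8 without 3B126 (-20.2). Under other rules for the cells it lay between -6.55 and -1.66 points at day 6 and between 0.20 and 5.97 points at day 8. No share passed a test under any setting, in a design in which the smallest p was 0.1 or above. Genes higher on every plate numbered 87 at 10 reads, 80 at 20 CPM per marker, 15 with a pseudocount of 20 CPM and 23 with TMM scaling, against 35, and genes lower on every plate 348 at 10 reads, 301 at 4 markers, 286 and 39 with pseudocounts of 1 and 20 CPM, against 164. Without single plates they ranged from 37 to 83 and from 187 to 247. Settings with fewer plates ask for 1 sign on fewer plates. With the median of all genes at -0.13 under TMM, the split moved to 23 higher and 196 lower genes.

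For day, edgeR called 0 genes with the clone as a replicate block, a fit of 6 sums without 3B77 (lowest adjusted p = 0.0981). It also called 0 with the block and 4 sums, without 3B77 and without WT at either day, and 0 without any single sum. DESeq2 called 93 genes, and edgeR without the filter on low counts 115 (86 higher, 29 lower). For 3BKO, 0 were called without any single sum, 58 with DESeq2 and 71 without the filter (21 higher, 50 lower). The block changed no call. The cause of these differences was not tested. Dnmt3b between 3BKO and other clones, 0.22, became -1.85 at 10 reads per marker, -2.25 at 4 markers and -0.43 at 20 CPM, and ranged from -0.30 to 1.601 without single sums, with values of -0.20, -0.03 and -0.30 without 3A38 at day 6, 3A38 at day 8 and 3B126 at day 6.

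Depth limits what can be said of single cells, since a marker at 5 reads stands for a higher level in a cell of 50000 reads than in one of 2092003, and sums of 5 to 27 cells rest on few cells for many genes.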

Other observations

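The enzymes that write and erase DNA methylation were read in these cells beside the knocked-out genes. Dnmt1, which copies methylation after replication, had at least 5 reads in 77 of the 109 neural progenitor-like cells (70.6%) and 341 of 491 others (69.5%), and Uhrf1, its partner, in 69 (63.3%) and 301 (61.3%). The demethylases Tet1 and Tet2 were found in 55 (50.5%) and 34 (31.2%), against 267 (54.4%) and 154 (31.4%). Tet3 was found in 62 (56.9%) against 138 (28.1%), and 15 and 13 of these 62 were cells of 3A38 at days 6 and 8. Of the 8 genes of this list none was higher or lower on every plate, with a median difference of -0.10 against -0.05 over all genes.

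Genes of the neural crest and of surface ectoderm, neighbours of the dorsal neural tube, were infrequent. Tfap2a, a factor of both, had at least 5 reads in 12 of 109 cells (11.01%) and 68 of 491 others (13.8%), Foxd3 in 3 (2.75%) and 2 (0.407%), and Cdh1, the epithelial cadherin, in 7 (6.42%) and 111 (22.6%). In the summed crest list, neural progenitor-like cells were above the others on 3 of 7 plates and below on 4.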
